A study of Mus musculus with 16 samples.

Results

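The 9 genes described here are markers in common use for radial glia and neural stem cells: Nes, Vim, Fabp7, Tnc, Ptprz1, Cd44, Prom1, Hopx and Msi1. They were taken by name from the 27179 genes of the deposited count tables, through the RefSeq symbols of their Entrez identifiers. All 9 were found, and all 9 were among the 15177 genes that passed the filter on low counts. The tables hold RNA sequencing counts of 16 libraries, 4 in each of 4 groups. The groups were differentiating null cells, differentiating intact cells, proliferating null cells and proliferating intact cells. Null cells had the genotype Kat7lox/loxNesCreT/+ and intact cells the genotype Kat7+/+NesCreT/+, so the Cre transgene was common to every group. KAT7, also called HBO1, is a histone lysine acetyltransferase. The cells were neural stem and progenitor cells from the cortices and ganglionic eminences of mouse foetuses at E14.5 (embryonic day), from 4 foetuses of each genotype, grown as neurospheres. Proliferating cells were taken 3 days after the last of 3 passages, and differentiating cells had spent 3 days on laminin in medium for cortical neurons. The sources used here do not name the strain. As its name says, this kind of Cre transgene is driven by sequences of the gene for nestin, which is also one of the 9 markers, so Cre was made in cells that use those sequences. Replicates carry numbers only, and the p-values below measure the spread between these libraries.

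Radial glia are the stem cells of the embryonic forebrain. They span the wall of the ventricle, divide there, give rise to neurons and later to glia, and many of their genes stay on in astrocytes. The 9 genes cover several of their features. Nestin and vimentin form the intermediate filaments of the radial fibre, and FABP7 carries fatty acids in the cytoplasm. Tenascin-C is a matrix protein of the stem cell niche, PTPRZ1 a receptor phosphatase that binds matrix, CD44 the receptor for hyaluronan and prominin-1 a pentaspan protein of apical membrane protrusions. HOPX is a small homeodomain protein without DNA binding of its own that marks outer radial glia in the human cortex and quiescent stem cells in the adult mouse hippocampus, and Musashi-1 (MSI1) is an RNA-binding protein that represses translation of Numb.

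Values are given as CPM, the counts of a gene per M (1000000) counts of a library scaled by edgeR's trimmed mean method (TMM). A gene was called higher or lower when the adjusted p of edgeR's quasi-likelihood test, fitted to all genes and all 16 libraries, was under 0.05. Library totals lay between 16.8 and 47.9 M counts, and the 9 genes together took 0.411 to 0.955% of them. Kat7 had 1 count over the 4 differentiating null libraries and 8 counts over the 4 proliferating null libraries, against 103 ± 3.08 CPM in differentiating intact cells and 139 ± 5.59 CPM in proliferating intact cells (SD, n = 4 each). The summed level of 6 stem and progenitor genes (Sox2, Sox1, Pax6, Slc1a3, Hes5 and Notch1) was 2443 to 3012 CPM in differentiating null libraries against 1400 to 2192 CPM in differentiating intact libraries, without overlap, and 1975 to 2197 CPM in proliferating null libraries against 1727 to 2141 CPM in proliferating intact libraries. These genes did not all move alike. In differentiating null cells Sox1, Pax6, Slc1a3 and Notch1 were called higher, and Sox2 and Hes5 were not called (log2 fold changes −0.23 and 0.16). In proliferating null cells Sox1 and Slc1a3 were called higher and Sox2 lower (−0.52, edgeR adjusted p = 0.0407). Pax6, Hes5 and Notch1 were not called there. The 5 endothelial and 5 microglial markers summed to at most 4.59 and 0.630 CPM in any library, with Cdh5, Tie1, Cldn5, Aif1, Cx3cr1 and Ptprc at 0 in 1 or more groups. Replicate 1 of the proliferating intact cells stood apart from its group on the first principal component, at −7.60 against −72.0 to −65.8 for the other replicates. Results of the 9 genes that rest on it are given with and without it. It also gave the stem and progenitor sum of 2141 CPM. In the others of its group that sum was 1727 to 1881 CPM, below every proliferating null library. Other cell type lists moved with the groups. Summed astrocyte markers (10 genes) reached 4008 to 6213 CPM in differentiating null libraries, 1059 to 1614 CPM in differentiating intact libraries, 1530 to 2394 CPM in proliferating null libraries, where Gjb6 was at 0, and 568 to 1054 CPM in proliferating intact libraries. Of these genes, Slc1a2, Ntsr2, Slc6a11 and Sparcl1 were called higher in proliferating null cells. Aqp4, Gjb6, Gjb2, S100b, Aldh1l1 and Gfap were not called there. Summed oligodendrocyte markers (6 genes) were 357 to 496 CPM in differentiating null libraries against 2701 to 5665 CPM in differentiating intact libraries, and 69.2 to 114 CPM in proliferating null libraries against 112 to 731 CPM in proliferating intact libraries, where Mog was at 0. Proliferating intact replicate 1 gave the 731 CPM, against 112 to 162 CPM in the others of its group. The astrocyte sum of 1054 CPM was also from that library, against 568 to 665 CPM in the others. The 8 markers of oligodendrocyte progenitors summed to 2047 to 2752 CPM in differentiating null libraries and 2142 to 4991 CPM in differentiating intact libraries, and to 1777 to 2262 CPM in proliferating null libraries, where Bmp4 was at 0, and 3050 to 3201 CPM in proliferating intact libraries. In the differentiating groups the 8 neuronal markers summed to 2090 to 2485 CPM in null and 1898 to 5323 CPM in intact libraries, the 4 markers of intermediate progenitors to 407 to 502 CPM in null and 141 to 221 CPM in intact libraries, the 5 ependymal markers to 33.5 to 47.1 CPM in null and 13.6 to 15.9 CPM in intact libraries, and the 7 mesenchymal and pericyte markers to 15.8 to 29.2 CPM in null and 53.0 to 188 CPM in intact libraries. Differentiating intact replicate 1 alone gave the neuronal sum of 5323 CPM, against 1898 to 2794 CPM in the others. It also gave the highest mesenchymal sum (188 CPM) and the lowest oligodendrocyte sum (2701 CPM) of its group. Both intact libraries numbered 1 were therefore also left out together. In the proliferating groups the sums were 1009 to 1215 CPM in null and 946 to 1078 CPM in intact libraries for neuronal markers, and 158 to 186 CPM in null and 172 to 234 CPM in intact libraries for intermediate progenitors. Intact replicate 1 gave both the 946 CPM and the 234 CPM, against 1074 to 1078 CPM and 172 to 185 CPM in the others of its group. The neuronal sum hides differences between its genes. Dcx, Syt1 and Stmn2 were called lower in proliferating null cells, at log2 fold changes of −4.11, −4.09 and −4.46. Tubb3, Nefl, Snap25, Map2 and Rbfox3 were not called there. Ependymal markers, with Pifo at 0, summed to 27.0 to 43.3 CPM in proliferating null and 15.5 to 17.4 CPM in proliferating intact libraries, and mesenchymal and pericyte markers to 5.24 to 6.84 CPM in null and 7.90 to 12.4 CPM in intact libraries. The part of these lists in the differences of the 9 genes was not tested, and in these bulk samples fewer cells of a type and less RNA per cell cannot be told apart.

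Per length of gene model, the 9 genes covered a wide range of levels. In proliferating intact cells Fabp7 was the most abundant at a mean of 2913 RPKM (CPM per kilobase), followed by Vim at 1422 RPKM. Next came Ptprz1 at 214 RPKM and Tnc and Nes at 199 RPKM each, whose library ranges overlapped. Msi1 at 24.2 RPKM, Hopx at 15.6 RPKM, Cd44 at 11.0 RPKM and Prom1 at 6.58 RPKM made up the low end, where only the ranges of Cd44 and Prom1 overlapped. The order shifted in differentiating null cells. Fabp7 (2344 RPKM), Vim (796 RPKM) and Ptprz1 (284 RPKM) still led, but Msi1 (47.0 RPKM) and Nes (42.0 RPKM) came next, then Prom1 (18.9 RPKM) and Tnc (16.1 RPKM), with Cd44 (3.94 RPKM) and Hopx (3.92 RPKM) lowest, and the library ranges overlapped within each of these 3 pairs. In differentiating intact cells Tnc held the fourth place at 76.2 RPKM and Cd44 was lowest at 0.897 RPKM, and in proliferating null cells Nes took the third place at 261 RPKM, within the range of Ptprz1, and Hopx lowest at 1.92 RPKM.

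**Figure D1:**
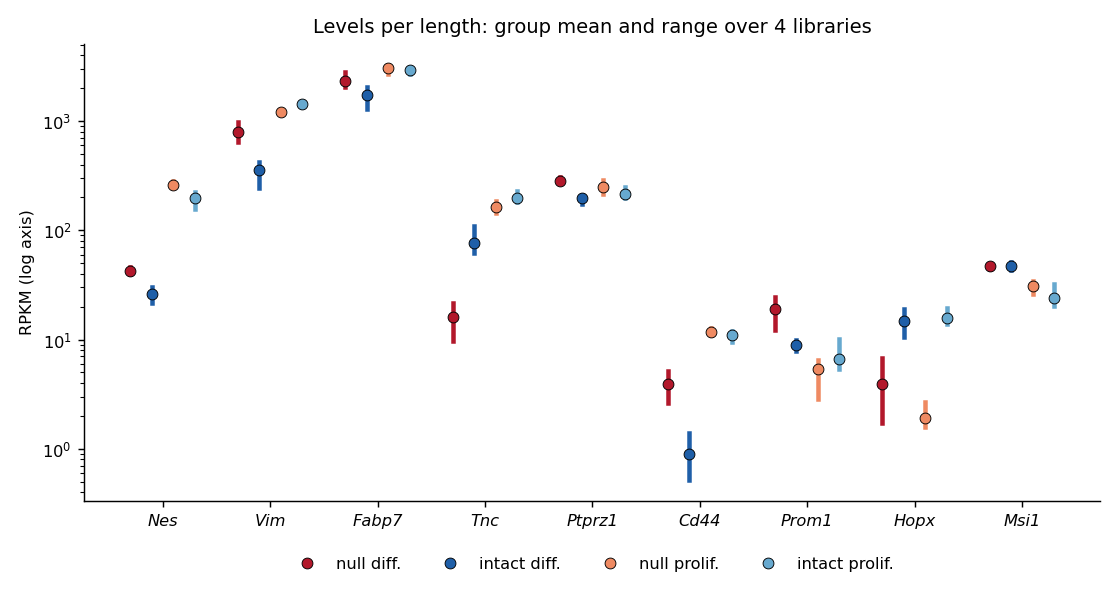
Level per length of the 9 marker genes in the 4 groups, as RPKM on a log axis, with the mean as a point and a line over the range of the 4 libraries. Fabp7 lies highest in each group, at group means of 1747 to 3040 RPKM, while Nes, Tnc and Cd44 have the widest ratio between their highest and lowest group means.

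In differentiating cells, loss of Kat7 went with higher levels of most of these markers. Of the 9 genes, 6 were called higher in null than in intact cells (Nes, Vim, Fabp7, Ptprz1, Cd44 and Prom1), 2 were called lower (Tnc and Hopx) and Msi1 was not called. Among all tested genes 46.4% were called in this comparison, 24.3% higher and 22.0% lower. In all 8 called members null and intact libraries did not overlap, as in 45.3% of all tested genes. The median log2 fold change of the 9 genes was 0.52, beside 0.04 for all tested genes. The 9 genes were chosen with earlier results of these data known, so these shares and medians are description and were not tested. With scaling by library size alone, 39.4% of all called genes were higher, against 52.5% with TMM, and the members' calls were the same. Against a minimum of 1.5-fold only Vim and Cd44 stayed called higher, with Tnc and Hopx still called lower. Nes, Fabp7, Ptprz1 and Prom1 lost their calls in that test (Prom1 at an edgeR adjusted p of 0.0624).

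In proliferating cells fewer of them differed. Nes and Msi1 were called higher in null cells, Hopx was called lower, and the other 6 were not called, where 38.6% of all tested genes were called, 19.0% higher and 19.7% lower. Null and intact libraries did not overlap for 3 of the 9 (Nes, Vim and Hopx), as in 39.0% of all tested genes. The median log2 fold change of the 9 genes was 0.06, beside −0.01 for all tested genes. With scaling by library size alone the share of called genes that were higher was 36.7%, against 49.1% with TMM, and Msi1 lost its call. The comparison in proliferating cells and the comparison in differentiating cells share no library. They do share the fit and its estimate of spread, and the cells of each genotype came from 4 foetuses. A call in both conditions is therefore not an independent replication.

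**Figure D2:**
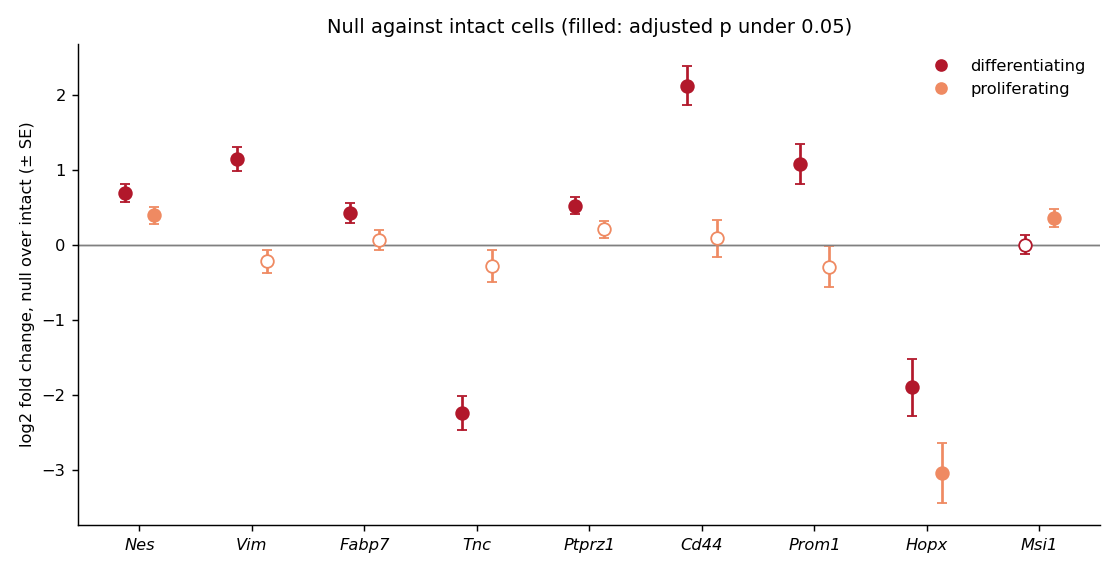
Log2 fold change of each marker gene, null over intact, in differentiating (left point of each pair) and proliferating cells (right point), with bars of 1 SE from the edgeR fit (n = 4 libraries per group). Filled points passed the adjusted p threshold: 6 genes above 0 and 2 below it in differentiating cells, and Nes, Msi1 and Hopx in proliferating cells.

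Promoters of the members that differed most between genotypes are shown here, since those members did not move as 1 set: Vim and Cd44 were higher in differentiating null cells, Tnc and Hopx were lower. The sequences are RefSeq's for GRCm38.p6 and run from 250 bases before to 50 bases after an annotated start, 5′ to 3′ on the strand of the gene. Capitals mark matches on either strand to any of 6 motifs, which were TATAAA as a core promoter element, CCAAT as the box of that name, GGGCGG as the GC box, TGGGAA as the core of the RBPJ site, TGANTCA as the AP-1 site and ACAAAG as the core of the SOX site. Vim lies at chr2:13574061-13574360 on the plus strand, Cd44 at chr2:102901616-102901915 on the minus strand, Tnc start 1 at chr4:64046966-64047265 on the minus strand, and Hopx starts 1 and 2 at chr5:77115074-77115373 and chr5:77095218-77095517 on the minus strand.
Vim: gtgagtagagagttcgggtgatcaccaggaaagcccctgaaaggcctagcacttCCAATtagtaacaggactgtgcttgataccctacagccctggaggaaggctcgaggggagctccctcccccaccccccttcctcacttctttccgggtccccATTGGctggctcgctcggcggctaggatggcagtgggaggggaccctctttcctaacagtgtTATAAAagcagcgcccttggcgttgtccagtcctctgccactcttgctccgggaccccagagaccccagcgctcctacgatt
Cd44: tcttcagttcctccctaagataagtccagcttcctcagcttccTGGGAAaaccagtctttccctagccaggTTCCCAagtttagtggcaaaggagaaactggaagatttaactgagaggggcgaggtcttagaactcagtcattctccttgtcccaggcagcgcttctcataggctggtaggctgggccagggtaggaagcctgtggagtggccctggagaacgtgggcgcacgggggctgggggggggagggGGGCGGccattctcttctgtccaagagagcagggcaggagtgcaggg
Tnc start 1: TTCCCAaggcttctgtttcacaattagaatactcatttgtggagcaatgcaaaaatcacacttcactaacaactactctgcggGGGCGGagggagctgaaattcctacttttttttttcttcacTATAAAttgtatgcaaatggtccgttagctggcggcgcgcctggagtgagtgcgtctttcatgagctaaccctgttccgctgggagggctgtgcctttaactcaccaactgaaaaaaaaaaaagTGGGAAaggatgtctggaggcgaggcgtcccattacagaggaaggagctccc
Hopx start 1: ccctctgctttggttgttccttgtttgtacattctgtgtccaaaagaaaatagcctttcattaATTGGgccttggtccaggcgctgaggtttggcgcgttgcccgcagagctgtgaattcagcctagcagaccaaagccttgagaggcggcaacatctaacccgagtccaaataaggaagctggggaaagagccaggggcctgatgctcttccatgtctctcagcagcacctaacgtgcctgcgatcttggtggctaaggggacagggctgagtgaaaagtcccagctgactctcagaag
Hopx start 2: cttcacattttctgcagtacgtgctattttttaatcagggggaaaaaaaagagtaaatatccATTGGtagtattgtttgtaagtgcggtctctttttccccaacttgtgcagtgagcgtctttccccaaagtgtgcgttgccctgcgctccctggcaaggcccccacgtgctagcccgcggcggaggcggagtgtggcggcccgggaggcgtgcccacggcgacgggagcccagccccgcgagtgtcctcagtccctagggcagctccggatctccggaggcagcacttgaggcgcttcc

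The Vim window holds TATAAA with its first base at −32 from the start, and CCAAT matches at −196 and −94. Cd44 has no TATAAA or CCAAT match, a GC box at 3 and TGGGAA matches at −207 and −179. The Tnc window has TATAAA at −126, a GC box at −167 and TGGGAA at −250 and −2. Each Hopx window holds a single match, CCAAT on the minus strand, at −187 for start 1 and at −188 for start 2. The table has 11 promoters for 8 of the 9 genes, since Msi1 is not in it. CCAAT was found in 5 of the 11 and in 37.4% of all 32851 promoters, GGGCGG in 6 and in 35.7%, TGGGAA in 5 and in 25.6%, TATAAA in 3 and in 13.6%, TGANTCA in 2 and in 7.81%, and ACAAAG in 0 and in 18.7%. None of the 27 matches overlapped a match to another motif. Promoters of 1 gene can overlap, as the 2 Tnc windows do, and a match of letters is not evidence of binding.

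Nes encodes nestin (Entrez 18008, chromosome 3, 87971093 to 87980451, plus strand), the filament protein by which neural stem cells are most often stained. It was at 280, 246, 255 and 249 CPM in differentiating null cells, against 132, 185, 175 and 146 CPM in differentiating intact cells. In proliferating cells it had 1604, 1520, 1552 and 1720 CPM in null libraries, against 955, 1235, 1289 and 1387 CPM in intact libraries. Every null library lay above every intact library of its condition, and the lowest of the proliferating intact values belongs to the replicate that stood apart. Its log2 fold change was 0.69 ± 0.12 in differentiating cells (SE, edgeR adjusted p = 0.000238) and 0.39 ± 0.12 in proliferating cells (edgeR adjusted p = 0.0153). The call in proliferating cells held when any 1 of the 16 libraries was left out, with a highest adjusted p of 0.0393. Neither Nes value passed a test against a minimum of 1.5-fold. Whether any reads counted for Nes come from the Cre transgene was not tested, and that transgene was in both genotypes.

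Vim encodes vimentin (22352, chromosome 2, 13574311 to 13582826, plus strand), the filament partner of nestin in radial glia, which astrocytes keep. Differentiating null cells had 1216, 1175, 1641 and 1810 CPM, against 444, 732, 685 and 774 CPM in differentiating intact cells. Proliferating null cells had 2118, 2283, 2307 and 2260 CPM, against 2476, 2695, 2651 and 2613 CPM in proliferating intact cells. The groups did not overlap in either condition, but in opposite directions. The difference was, on the log2 scale, 1.15 ± 0.16 in differentiating cells (edgeR adjusted p = 4.19e-05) and −0.22 ± 0.16 in proliferating cells (edgeR adjusted p = 0.295), where its 95% interval ran from −0.56 to 0.13. In a fit of the proliferating groups alone the value was again −0.22, and Vim was called lower (edgeR adjusted p = 0.0233). Nes and Vim thus kept no fixed ratio: nestin came to 4.12 to 6.90 RPKM per 100 RPKM of vimentin in differentiating null cells, 5.64 to 8.88 in differentiating intact cells, 19.9 to 22.8 in proliferating null cells and 11.5 to 15.9 in proliferating intact cells.

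Fabp7 (12140, chromosome 10, 57784923 to 57788450, plus strand) encodes brain lipid-binding protein, among the first proteins to mark radial glia. It had 1570, 1724, 2153 and 1698 CPM in differentiating null cells, against 1499, 1556, 979 and 1291 CPM in differentiating intact cells. In proliferating cells it had 2496, 2275, 2444 and 2053 CPM in null libraries, against 2131, 2343, 2363 and 2042 CPM in intact libraries. The proliferating groups overlapped, and the differentiating groups were parted by a narrow gap. The log2 fold change was 0.42 ± 0.13 in differentiating cells (edgeR adjusted p = 0.0176) and 0.06 ± 0.13 in proliferating cells (edgeR adjusted p = 0.750; 95% interval −0.23 to 0.35). The call in differentiating cells was lost without null replicate 3 (0.32, edgeR adjusted p = 0.0667) and in a fit of the differentiating groups alone (0.37, edgeR adjusted p = 0.0961). In every group Fabp7 stood among the 16 most abundant genes per length.

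Tnc encodes tenascin-C (21923, chromosome 4, 63959785 to 64047015, minus strand), which stem cells secrete into their niche and which binds integrins, contactin-1 and PTPRZ1. Differentiating null cells had 105, 68.2, 133 and 152 CPM, against 438, 458, 773 and 494 CPM in differentiating intact cells. Proliferating null cells had 1247, 1056, 1028 and 1303 CPM, against 1296, 1356, 1381 and 1611 CPM in proliferating intact cells. All 4 differentiating null libraries lay far below the intact ones, at a mean of 21.2% of their level, while the proliferating groups overlapped at 1 pair of libraries. Null against intact, the log2 fold change was −2.24 ± 0.22 in differentiating cells (edgeR adjusted p = 2.33e-06), the strongest fall among the 9, and −0.28 ± 0.21 in proliferating cells (edgeR adjusted p = 0.316; 95% interval −0.75 to 0.18). A fit of the proliferating groups alone gave −0.29 and called it (edgeR adjusted p = 0.0453). An antisense gene, 8030451A03Rik, overlaps Tnc exons by 176 bases and had 2 counts in all in differentiating null cells, 2 in differentiating intact cells, 55 in proliferating null cells and 8 in proliferating intact cells.

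Ptprz1 encodes the receptor-type phosphatase zeta (19283, chromosome 6, 22875315 to 23052916, plus strand), carried by radial glia, oligodendrocyte progenitors and astrocytes. It had 2263, 2276, 2471 and 2166 CPM in differentiating null cells, against 1392, 1695, 1712 and 1579 CPM in differentiating intact cells, with no overlap. In proliferating cells the values were 2336, 1731, 1724 and 2205 CPM in null libraries, against 2027, 1600, 1635 and 1640 CPM in intact libraries, and these overlapped through intact replicate 1. The log2 fold change was 0.52 ± 0.11 in differentiating cells (edgeR adjusted p = 0.00161) and 0.21 ± 0.11 in proliferating cells (edgeR adjusted p = 0.156; 95% interval −0.04 to 0.46). Without intact replicate 1 the proliferating value was 0.30 and was called (edgeR adjusted p = 0.0475).

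Cd44 (12505, chromosome 2, 102811141 to 102901669, minus strand) showed the largest rise in differentiating null cells. It had 14.9, 17.3, 29.0 and 27.8 CPM there, against 7.93, 5.58, 2.91 and 3.87 CPM in differentiating intact cells. Proliferating null cells had 71.5, 63.2, 62.4 and 67.4 CPM, against 53.3, 63.4, 64.7 and 67.3 CPM in proliferating intact cells. The differentiating groups were separate, and the proliferating groups overlapped between 62.4 and 67.3 CPM. On the log2 scale the difference was 2.13 ± 0.26 in differentiating cells (edgeR adjusted p = 1.52e-05), a null mean of 439% of the intact mean, and 0.09 ± 0.24 in proliferating cells (edgeR adjusted p = 0.805; 95% interval −0.44 to 0.62). The highest differentiating intact value came from replicate 1. Leaving out any 1 library kept the differentiating value between 1.94 and 2.43.

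Prom1 encodes prominin-1, also known as CD133 (19126, chromosome 5, 43993621 to 44102047, minus strand). It had 49.8, 73.8, 101 and 86.2 CPM in differentiating null cells, against 32.2, 40.2, 33.8 and 40.2 CPM in differentiating intact cells, without overlap. Proliferating null cells had 24.4, 26.0, 26.5 and 11.8 CPM, against 41.5, 22.5, 22.0 and 22.1 CPM in proliferating intact cells. In each proliferating group 1 library was far from the rest, null replicate 4 at the low end and intact replicate 1 at the high end. The log2 fold change was 1.08 ± 0.27 in differentiating cells (edgeR adjusted p = 0.00393) and −0.29 ± 0.27 in proliferating cells (edgeR adjusted p = 0.424; 95% interval −0.88 to 0.30). Without proliferating intact replicate 1 that value was −0.01 (edgeR adjusted p = 0.983). A predicted gene, Gm16401, overlaps Prom1 exons on the opposite strand by 424 bases, and the sources used here do not say whether the counts used strand.

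Hopx (74318, chromosome 5, 77086986 to 77115123, minus strand) was low in null cells of both conditions. It had 2.62, 8.12, 10.3 and 2.61 CPM in differentiating null cells, against 28.6, 19.9, 24.7 and 15.8 CPM in differentiating intact cells. Proliferating null cells had 2.41, 4.01, 2.54 and 2.64 CPM, against 29.1, 22.1, 22.0 and 20.9 CPM in proliferating intact cells. Null and intact libraries did not overlap in either condition, and the differentiating null libraries fell into a low pair and a higher pair. On the log2 scale the fold change was −1.90 ± 0.37 in differentiating cells (edgeR adjusted p = 0.000747) and −3.04 ± 0.40 in proliferating cells (edgeR adjusted p = 3.94e-05), where the null mean was 12.3% of the intact mean. Hopx was the only one of the 9 called lower in both conditions and Nes the only one called higher in both, and these 2 genes kept both calls whichever 1 library was left out. An antisense transcript, Hopxos, shares 412 exon bases with it, and its counts were not analysed here.

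Msi1 (17690, chromosome 5, 115359059 to 115455698, plus strand) encodes Musashi-1. It had 72.0, 76.6, 68.4 and 74.6 CPM in differentiating null cells, against 66.6, 72.0, 72.9 and 78.7 CPM in differentiating intact cells. Proliferating null cells had 50.7, 52.9, 49.1 and 40.7 CPM, against 50.1, 35.0, 33.8 and 31.5 CPM in proliferating intact cells. The differentiating null values lay within the range of the intact ones, and in proliferating cells intact replicate 1 reached into the null range. The log2 fold change was 0.01 ± 0.12 in differentiating cells (edgeR adjusted p = 0.968; 95% interval −0.26 to 0.27) and 0.36 ± 0.12 in proliferating cells (edgeR adjusted p = 0.0297). Without intact replicate 1 the proliferating value was 0.53 (edgeR adjusted p = 0.000319), but the call was lost when any of 6 other libraries was left out (highest adjusted p 0.0974), in a fit of the proliferating groups alone (edgeR adjusted p = 0.0974) and with scaling by library size alone (0.28, edgeR adjusted p = 0.123).

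**Figure D3:**
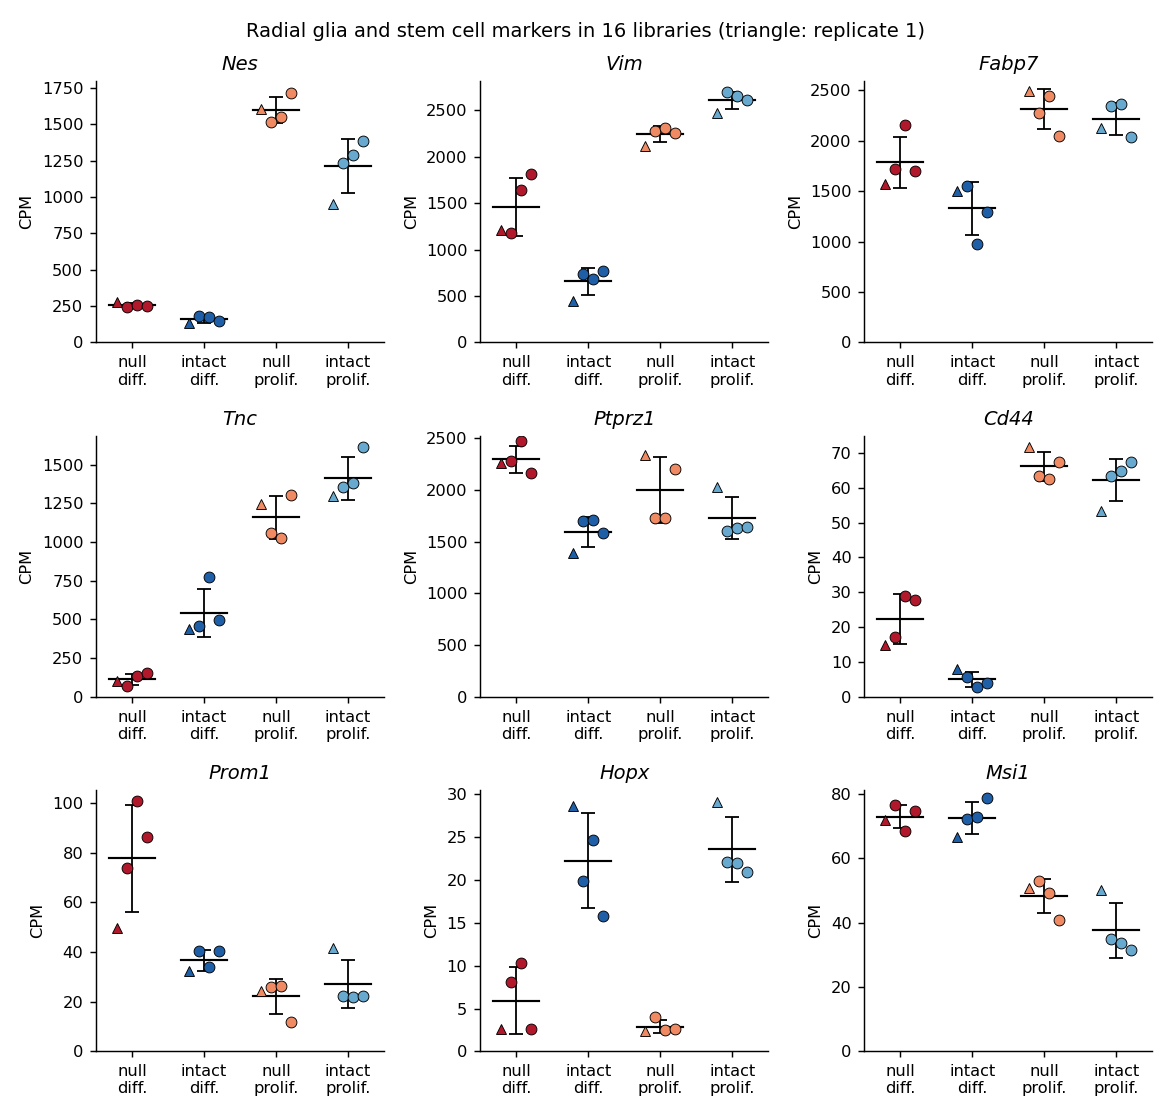
CPM of each marker gene in every library of the 4 groups, with replicate 1 as a triangle, lines at the mean and bars of 1 SD (n = 4 per group), each panel on its own axis from 0. Tnc and Cd44 lie near the bottom of the scale in 1 of the differentiating groups only, Tnc at 68.2 to 152 CPM in null cells and Cd44 at 2.91 to 7.93 CPM in intact cells, and Hopx is low in both null groups.

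Upon differentiation of null cells, 3 of the 9 genes were called higher (Prom1, Hopx and Msi1), 5 lower (Nes, Vim, Fabp7, Tnc and Cd44) and Ptprz1 was not called, where 69.0% of all tested genes were called, 34.6% higher and 34.4% lower. In intact cells Msi1 was called higher, the same 5 genes were called lower, and Ptprz1, Prom1 and Hopx were not called, where 72.0% of all tested genes were called, 36.7% higher and 35.3% lower. Null and intact responses share no library, but they share the fit and its estimate of spread. Nes had the steepest fall in intact cells after Cd44, and it kept 16.1% of its proliferating level in null cells and 13.1% in intact cells, with log2 fold changes of −2.63 ± 0.12 in null cells and −2.93 ± 0.13 in intact cells (edgeR adjusted p = 3.04e-10 and 5.25e-11). Fabp7 fell by 0.38 ± 0.13 in null cells and by 0.74 ± 0.13 in intact cells on the log2 scale (edgeR adjusted p = 0.0214 and 0.000173), the first of which was lost without any of 5 libraries (highest adjusted p 0.0706). Msi1 rose by 0.59 ± 0.12 in null cells and 0.95 ± 0.12 in intact cells (edgeR adjusted p = 0.000504 and 7.05e-06). Hopx rose by 1.06 ± 0.39 in null cells (edgeR adjusted p = 0.0245), although the groups overlapped. The call was lost without any of 5 libraries, at values down to 0.64 without null differentiating replicate 3 (highest adjusted p 0.133), and in a fit of the null groups alone (edgeR adjusted p = 0.0571). In intact cells Hopx had a log2 fold change of −0.08 ± 0.36 (edgeR adjusted p = 0.849).

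The responses of null and intact cells differed for 4 of the 9 genes by the test of the difference itself, the log2 response of null cells minus that of intact cells. Called higher were Vim, Cd44 and Prom1 and called lower was Tnc, where 22.7% of all tested genes were called, 12.7% higher and 9.93% lower. Vim fell by 0.62 ± 0.16 in null cells and by 1.99 ± 0.16 in intact cells on the log2 scale, a difference of 1.37 ± 0.22 (edgeR adjusted p = 0.000756). Cd44 fell by 1.57 ± 0.25 in null cells and by 3.61 ± 0.28 in intact cells, a difference of 2.04 ± 0.36 (edgeR adjusted p = 0.00111), so that null cells kept 33.7% of the proliferating Cd44 level and intact cells 8.16%. Prom1 rose by 1.81 ± 0.28 in null cells (edgeR adjusted p = 3.18e-05), against 0.44 ± 0.27 in intact cells (edgeR adjusted p = 0.156), a difference of 1.38 ± 0.38 (edgeR adjusted p = 0.0180). The intact Prom1 value was 0.72 without proliferating intact replicate 1 and was then called (edgeR adjusted p = 0.0204), and with same-numbered libraries of a genotype treated as 1 isolate the difference was 1.34 with an edgeR adjusted p of 0.0504. Tnc went the other way. It fell by 3.34 ± 0.23 in null cells and by 1.38 ± 0.22 in intact cells, a difference of −1.95 ± 0.31 (edgeR adjusted p = 0.000545), and null cells kept 9.89% of its proliferating level against 38.3% in intact cells. For the remaining 5 genes the difference was 0.30 ± 0.17 (Nes), 0.31 ± 0.16 (Ptprz1), 0.36 ± 0.19 (Fabp7), 1.14 ± 0.53 (Hopx) and −0.36 ± 0.17 (Msi1), with edgeR adjusted p of 0.136 to 0.214. Without proliferating intact replicate 1 the difference for Msi1 was −0.52 and was called (edgeR adjusted p = 0.00542).

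**Figure D4:**
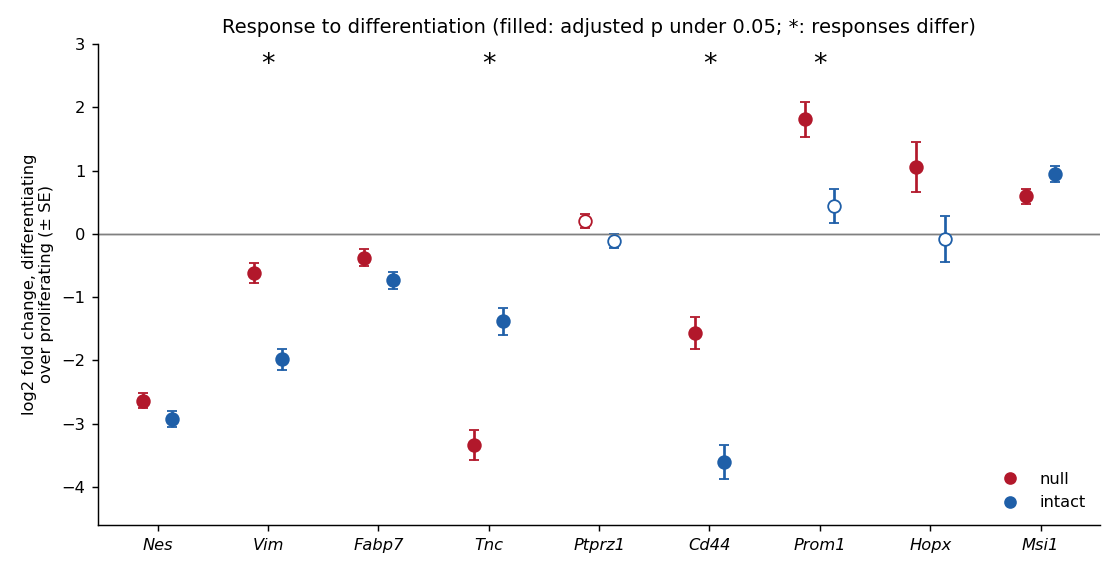
Log2 fold change of each marker gene, differentiating over proliferating, in null (left point of each pair) and intact cells (right point), with bars of 1 SE from the edgeR fit (n = 4 libraries per group), filled where the adjusted p passed the threshold. Asterisks mark Vim, Tnc, Cd44 and Prom1, the 4 genes whose responses differed between the genotypes.

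Genes placed beside the members were described from a list of 41 ligands, partners and relatives, 36 of which were tested. In differentiating cells 10 of them were called higher and 14 lower in null cells, and in proliferating cells 2 were called higher and 9 lower, beside the same backgrounds of 46.4% and 38.6% called. Median log2 fold changes were −0.07 and −0.10. Among 6 genes for ligands and matrix proteins listed with PTPRZ1, 4 were lower in null cells in both conditions and 0 were higher, while Ptprz1 itself was higher in differentiating null cells. Whether each of the 6 proteins binds PTPRZ1 was not tested. Cntn1, the gene for the adhesion protein contactin-1, was at 51.6 ± 20.8 CPM in differentiating null cells against 270 ± 5.74 CPM in differentiating intact cells, and at 4.67 ± 0.446 CPM in proliferating null cells against 105 ± 32.6 CPM in proliferating intact cells (SD, n = 4 each). Its log2 fold changes were −2.39 ± 0.24 and −4.49 ± 0.27 (edgeR adjusted p = 2.19e-06 and 4.3e-08). Mdk, the gene for the growth factor midkine, was at 0.418 ± 0.217 CPM in differentiating null cells against 27.6 ± 11.0 CPM in differentiating intact cells, with a log2 fold change of −6.07 ± 0.55 (edgeR adjusted p = 9.85e-07). Vcan and Tnr, which encode the matrix proteins versican and tenascin-R, were the other two. Ptn (pleiotrophin) and Ncan (neurocan) were not called, at log2 fold changes of 0.28 and 0.18 in differentiating cells and 0.10 and 0.07 in proliferating cells.

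Among partners of CD44, the cytoskeletal linkers Ezr and Msn, the hyaluronan receptor Hmmr and the membrane protease Mmp14 were called higher in differentiating null cells, and the hyaluronan synthases Has2 and Has3 were called lower, of 8 tested. For this and the following small subsets, 46.4% of all tested genes were called in differentiating cells, 24.3% higher and 22.0% lower. Msn was at 110 ± 25.4 CPM in differentiating null cells and 58.7 ± 7.54 CPM in differentiating intact cells (log2 fold change 0.91 ± 0.15, edgeR adjusted p = 0.000139). Has2 was at 0.573 ± 0.267 CPM in differentiating null cells and 6.31 ± 1.78 CPM in differentiating intact cells (log2 fold change −3.42 ± 0.52, edgeR adjusted p = 8.48e-05). In proliferating null cells it had 5 counts in all. The integrins were mixed in differentiating null cells: of 7 tested genes among integrins and tenascin relatives, Itga8, Itga9 and Itgb3 were called lower, at log2 fold changes of −2.03 ± 0.41, −2.72 ± 0.27 and −1.21 ± 0.34, and Itgav, Itgb1 and Itgb8 higher, at 1.08 ± 0.17, 0.36 ± 0.12 and 1.55 ± 0.18. Itga9 encodes a receptor subunit for tenascin-C. Of 8 other filament genes, 0 were higher and 3 lower in differentiating null cells, namely the neurofilaments Nefl and Nefm and the synemin gene Synm. The astrocyte filament gene Gfap was at 1276 ± 306 CPM in differentiating null cells and 301 ± 188 CPM in differentiating intact cells without overlap, at a log2 fold change of 2.08 ± 1.11 that was not called (edgeR adjusted p = 0.138). Msi2, a relative of Msi1, Numb, the target of Musashi, and Numbl, a relative of Numb, were all 3 called higher in differentiating null cells, at 0.44 ± 0.08, 0.51 ± 0.12 and 0.73 ± 0.11. In proliferating cells 0 of the 3 were called, at log2 fold changes of −0.10, 0.15 and −0.28, where 38.6% of all tested genes were called.

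A list of 40 other radial glia and stem cell genes, all of them tested, was described in the same way. It was chosen with earlier results of these data known. It contains the stem and progenitor genes summed above, and shares Gfap, Itgb1 and Msi2 with the partners. It is therefore not separate support for the values of the members. In differentiating null cells 23 were called higher and 4 lower, where 46.4% of all tested genes were called, with a median log2 fold change of 0.54 beside 0.04 for all tested genes. In proliferating null cells 9 were called higher and 5 lower, where 38.6% of all tested genes were called, with a median of 0.09 beside −0.01. The 9 higher calls in proliferating cells became 5 with scaling by library size alone and 15 without the 2 intact libraries numbered 1. Itgb5, an integrin subunit gene, had the lowest adjusted p in differentiating cells, with 163 ± 9.63 CPM in null cells against 52.1 ± 6.34 CPM in intact cells (log2 fold change 1.64 ± 0.10, edgeR adjusted p = 2.98e-08). Acsbg1, the gene for an acyl-CoA synthetase of glia, was at 114 ± 21.8 CPM in differentiating null cells and 24.2 ± 11.2 CPM in differentiating intact cells. Tfap2c, the gene of a transcription factor found in outer radial glia of the human cortex, had 0 counts in differentiating null cells and 350 in differentiating intact cells, and was at least 138-fold lower (3 counts over the group as the floor, which covers counting error only). In proliferating null cells Sox1, the gene for a neural progenitor factor, was called higher (0.83 ± 0.13, edgeR adjusted p = 0.00017) and Fut4, whose enzyme makes the stem cell epitope LewisX, was called lower (−3.05 ± 0.48, edgeR adjusted p = 0.00015). The responses to differentiation differed between null and intact cells for 12 of the 40, where 22.7% of all tested genes were called. All 12 were called higher, among them Itgb5 at 1.33 ± 0.14 and the glial determinant Sox9 at 1.31 ± 0.21, and 0 were called lower, against 4 without the 2 intact libraries numbered 1 and 2 with DESeq2.

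**Figure D5:**
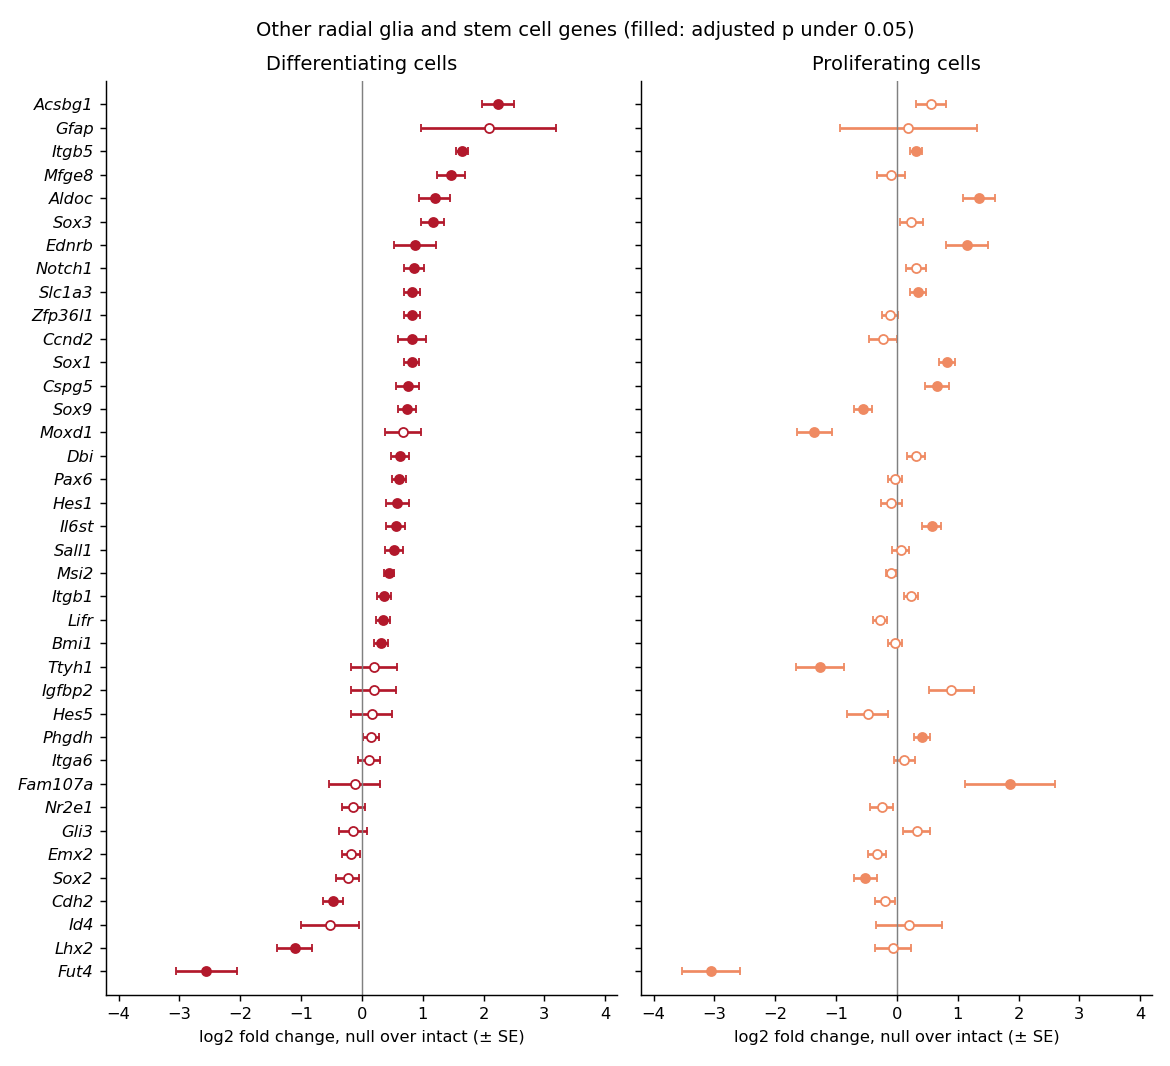
Log2 fold change, null over intact, of 38 of the 40 other radial glia and stem cell genes in differentiating (left) and proliferating cells (right), with bars of 1 SE from the edgeR fit (n = 4 libraries per group), sorted by the value in differentiating cells and filled where the adjusted p passed the threshold. Tfap2c is not drawn because differentiating null cells had 0 counts; of the genes drawn, 22 filled points lie above 0 in differentiating cells.

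Genes whose pattern over the 16 libraries was nearest to that of each member were found among 12286 candidates by the root mean square difference of log2 CPM after centring each gene on its own mean. For Nes these were Peg12, Gins2 and Metrn, at 0.177, 0.190 and 0.208, where Nes itself had an SD of 1.43 over the 16 libraries. Vim was nearest to Tinf2, Gamt and Apool (0.196 to 0.226, own SD 0.812) and Fabp7 to Pip4p2, Tob1 and Uevld (0.159 to 0.172, own SD 0.367). Cd44 was nearest to Ccdc141, Pqlc3 and Acsbg1 (0.334 to 0.380, own SD 1.57), the last of which is also on the list of other radial glia genes. Tnc had no gene nearer than Arpc1b at 0.435 (own SD 1.48), and Hopx none nearer than Neto1 at 0.602 (own SD 1.41). Prom1 was nearest to Tox3 (0.346), Ptprz1 to Trip11 (0.115) and Msi1 to B3gat1 (0.128). The 9 members themselves were left out of this search.

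Spread between replicates was uneven among the 9 genes. On the log2 CPM scale the SD of Hopx in differentiating null cells was 1.04, where the median SD of all tested genes in that group was 0.122, and Cd44 had an SD of 0.619 in differentiating intact cells, where that median was 0.211. Msi1 and Ptprz1 had SD of 0.0705 and 0.0793 in differentiating null cells. With counts of 288 over the 4 proliferating null libraries for Hopx and 631 over the 4 differentiating intact libraries for Cd44, these 2 genes rest on the fewest reads of the 9.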

How the data were processed

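The deposited values are raw counts of reads per gene with the length of each gene model, 1 library per file per the file headers, and were made by the authors with bcl2fastq and featureCounts on mm10 per the submitters' processing notes. Polyadenylated RNA was read as 75-base pairs per the labels' protocols. The sources used here name no aligner, annotation, strandedness or tool versions. A further file that repeats these counts in 1 table was left out.

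Symbols came from the RefSeq table of GRCm38.p6, the assembly that mm10 names, and 25275 of 27179 identifiers matched. GENCODE M21 gave exon overlaps. The model was edgeR 4.0.16 in R 4.3.3 (filterByExpr by group at a minimum count of 10, TMM, quasi-likelihood test, 1 mean per group over all 16 libraries, no block, common biological coefficient of variation 0.200), with Benjamini-Hochberg adjustment over all tested genes. CPM used TMM-scaled library sizes, RPKM the deposited lengths, and log2 CPM a prior count of 2. The SE was the unshrunk log2 estimate divided by the root of F. Without spike-ins, a change is relative to the rest of the library. Intervals and floors cover counting error only, except those of fold changes. The fit was also run on simulated counts in which a small share of genes changed, in differentiating null cells only. Far more genes were called in these data, so that run cannot show how scaling and error rates behave under such wide change.

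The 9 members and the lists were chosen with earlier results of these data known. Named were Kat7, all members, the 3 nearest genes of each member (at least 2 CPM in 1 group, no predicted genes), up to 4 called genes with the lowest adjusted p per list and comparison, any partner, and some cell type markers. A gene that met this rule is not reported here and stands in the counts alone. Alternatives were size factors (RLE), library size alone, DESeq2 1.42.0, no filter, at least 5 CPM in 4 libraries, replicate blocks, 2 groups only, a minimum of 1.5-fold, and leaving out libraries.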

Additional observations from a re-analysis of the deposited data

Results flagged for a closer look

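Dixon's test for a sample far from its group was run on 36 sets of 4 libraries (9 genes in 4 groups), and 4 of them held a library past its 95% critical value, where chance gives about 1 in 20. In proliferating intact cells these were replicate 1 for Ptprz1 (2030 CPM, against 1600 to 1640 CPM in the others), for Prom1 (41.5 CPM, against 22.0 to 22.5 CPM) and for Hopx (29.1 CPM, against 20.9 to 22.1 CPM). In proliferating null cells it was replicate 4 for Prom1 (11.8 CPM, against 24.4 to 26.5 CPM). Replicate 1 of the proliferating intact cells is the library that stood apart on the first principal component.

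The log2 response to differentiation, null minus intact, differed by its own test for Vim (1.37), Tnc (−1.95), Cd44 (2.04) and Prom1 (1.38).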

How the results depend on the processing

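Of 1143 values of members under alternatives, 1100 stayed on their side of the threshold, 34 lost a call and 9 gained one. Of the called values 0 changed sign, while some uncalled values near 0 did. DESeq2, RLE size factors, no filter and the stricter filter changed no member's call. Against a minimum of 1.5-fold the calls over all genes, higher and lower, were 958 and 1683 for null against intact differentiating cells, 627 and 1018 for proliferating cells, 2653 and 2497 for the response of null cells, 3142 and 2588 for that of intact cells, and 359 and 407 for their difference. Among members it left 2 higher and 2 lower in differentiating cells, and 0 higher and 1 lower in proliferating cells. It left 1 higher and 3 lower in the response of null cells, and 1 higher and 4 lower in that of intact cells. In the difference of responses it left 2 higher and 1 lower. Lost were the intact fall of Fabp7 (edgeR adjusted p = 0.109) and the difference for Prom1 (edgeR adjusted p = 0.121), among others. With 2 groups only, 1 member was called higher and 3 lower in proliferating cells, and with library size alone 1 was called higher. Without both intact libraries numbered 1, 2 members were called higher in the response of intact cells and 2 lower in the difference of responses.

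Leaving out 1 library at a time gave 1 to 2 members higher in the response of intact cells, 1 to 2 lower in the difference of responses and 1 to 3 higher in proliferating cells. For the other radial glia genes, 4 to 13 were then higher in proliferating cells and 0 to 2 lower in the difference of responses. That list had 15 higher in proliferating cells without both intact libraries numbered 1 and 5 with library size alone, 7 higher in the response of intact cells with 2 groups only, 2 lower in differentiating cells under the stricter filter, and, in the difference of responses, 4 lower without both libraries and 2 with DESeq2. The cause was not tested.

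Whether the same replicate number marks the same foetus is not stated. Correlations of residuals between same-numbered libraries were −0.231 to 0.126 over the 4 pairs of groups. Across conditions, 2 of 4 intact libraries and 0 of 4 null libraries correlated best with their own number. With so few libraries these values cannot tell whether the numbers pair them. A replicate block changed no member's call, with 6 members higher and 2 lower in differentiating cells. Taking same-numbered libraries of a genotype as 1 isolate lost Prom1 in the difference of responses (1.34, edgeR adjusted p = 0.0504). The smallest summed counts of a group were 288 for Hopx in proliferating null cells and 631 for Cd44 in differentiating intact cells.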
